A study of Homo sapiens with 15 samples.

Results

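The 86 genes for the proteins of the cytosolic ribosome were followed through 15 RNA libraries of a breast cancer cell line in which estrogen receptor β was removed, put back and activated. Members were taken from the gene count table by name: protein-coding genes whose symbol is RPL or RPS followed by a digit, plus RPSA and the stalk genes RPLP0, RPLP1 and RPLP2. S6 kinase genes, pseudogenes, readthrough genes and the RPS4Y copies were left out, which gave 86 of 60664 rows. Of these, 46 encode proteins of the large (60S) subunit, 3 of them in its stalk, and 31 encode proteins of the small (40S) subunit. Another 8 are duplicate copies of such genes (such as RPL39L, a copy of RPL39). The last, RPS19BP1, meets the rule by its letters but encodes a protein that binds RPS19 and is not itself a ribosomal protein. Counts sufficed to test 84 members; RPL10L had 0 counts and RPL3L had 43 counts over all libraries.

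Each ribosome carries 1 copy of nearly every ribosomal protein, and an unassembled surplus is degraded, so the proteins are needed in equal numbers. Transcription of most of them starts at a C followed by a run of pyrimidines, the 5′ terminal oligopyrimidine (TOP) tract, through which LARP1 and the kinase mTOR set how much the message is translated. Genes for ribosome assembly, for rRNA synthesis and for these proteins are known targets of MYC, and ribosome production is a common feature of breast cancer growth. Estrogen receptor β (ERβ, encoded by ESR2) is a nuclear receptor that binds DNA at estrogen response elements.

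KPL4 is an established human breast adenocarcinoma line with amplified HER2, and all 5 groups of 3 libraries come from it. LY500307 and vehicle libraries came from knockout cells with exogenous ERβ, starved of steroids for 72 h (1% charcoal-treated serum, no phenol red) before 24 h with 200 nM LY500307, an ERβ agonist, or with DMSO. Add-back libraries came from the same kind of cells, and knockout libraries from cells without ERβ, both grown in 7% serum, as were the control cells that kept their own ERβ. The labels give neither the number of clones behind the knockout nor the promoter of the exogenous ERβ, and the vehicle and add-back groups differ in serum as well as in DMSO.

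Libraries held 12614074 to 19390378 expected counts of rRNA-depleted, stranded total RNA. ESR2 itself had 43.9 ± 1.36 CPM in LY500307, 45.2 ± 3.24 CPM in vehicle, 32.8 ± 1.94 CPM in add-back, 4.41 ± 1.36 CPM in knockout and 5.76 ± 0.867 CPM in control libraries (SD, n = 3). The difference between knockout and control did not pass the test (log2 fold change -0.38, edgeR adjusted p = 0.0796), so the count of this gene separates the cells with exogenous ERβ from the others but not knockout from control. The 7 markers of the KPL4 line were all present. They summed to 10630 CPM in LY500307, 10270 CPM in vehicle, 9143 CPM in add-back, 8484 CPM in knockout and 6845 CPM in control libraries. The largest was ERBB2, with 5280 CPM in knockout and 3521 CPM in control libraries. GRB7 and KRT19 were also higher in knockout than in control libraries, while EPCAM, CDH1, KRT8 and KRT18 were lower. The part of these markers in the results was not tested. The 3 endothelial markers, VWF among them, summed to 11.45 CPM in LY500307, 10.4 CPM in vehicle and 3.355 to 4.15 CPM in the other groups, and the 5 stromal ones to 2.355 to 4.251 CPM. The summed level of the immune list reached at most 0.77 CPM and of the erythroid list at most 0.07 CPM in a group mean. In bulk samples fewer cells of a type and less RNA per cell cannot be told apart.

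The first bases of the transcripts are shown for 8 members that the results return to, since the tract at the start is the feature most of these genes share. Sequences are RefSeq promoter windows on GRCh38.p14, 20 bases before and 20 from the start base on, 5′ to 3′. Capitals mark the unbroken run of C and T that begins at the start base, where it begins with C.
RPL37A, chr2:216498824-216498863, plus strand: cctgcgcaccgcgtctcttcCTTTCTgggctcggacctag
RPL21, chr13:27251538-27251577, plus strand: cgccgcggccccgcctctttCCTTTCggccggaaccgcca
RPS12, chr6:132814549-132814588, plus strand: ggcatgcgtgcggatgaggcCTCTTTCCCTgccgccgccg
RPL28, chr19:55385912-55385951, plus strand: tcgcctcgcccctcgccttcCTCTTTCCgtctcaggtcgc
RPLP1, chr15:69452798-69452837, plus strand: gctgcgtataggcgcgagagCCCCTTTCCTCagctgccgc
RPL22L1, chr3:170870176-170870215, minus strand: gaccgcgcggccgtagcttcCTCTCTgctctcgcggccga
RPS28, chr19:8321476-8321515, plus strand: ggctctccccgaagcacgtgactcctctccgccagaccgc
RPS27L, chr15:63157458-63157497, minus strand: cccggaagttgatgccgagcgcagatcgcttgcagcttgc
Of the 86 members, 68 matched a window, with 84 windows between them. The windows searched were longer than the stretches shown, at 300 bases, 250 before the start and 50 from it on. A gene counted if any of its windows held the letters. A C at the start base followed by at least 4 further C or T was found in 69.1% of them, against 5.14% of all 27305 genes with a window. The letters CTTTCC within 20 bases of the start were in 30.9%, against 2.56% of all genes. CCGGAAG on either strand of the 300 bases, the core letters bound by ETS factors, was in 35.3%, against 12.2%. The single arm of an estrogen response element, AGGTCA on either strand, was in 16.2%, against 16.5% of all genes, and the full palindromic element was in 0 members, against 0.0403% of all genes. RPL28, RPLP1 and RPL22L1 have tracts, while RPS28 and RPS27L have none at the annotated start.

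The members took a smaller share of the counts in knockout cells than in any other group. They held 3.171, 3.116 and 3.116% of all counts in LY500307 libraries, 3.077, 3.104 and 3.096% in vehicle libraries, 3.038, 3.029 and 3.098% in add-back libraries, 2.853, 2.835 and 2.863% in knockout libraries, and 3.09, 3.06 and 3.09% in control libraries. The 3 knockout libraries lay below the other 12, whose groups lay close together. Knockout cells held 2.85 ± 0.014% and control cells 3.08 ± 0.017% (SD, n = 3), and leaving out 1 library at a time kept the ratio of the 2 shares between 0.922 and 0.928. Both subunits took part: 60S genes held 1.791% in knockout and 1.933% in control libraries, and 40S genes 1.024% in knockout and 1.11% in control libraries.

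**Figure D1:**
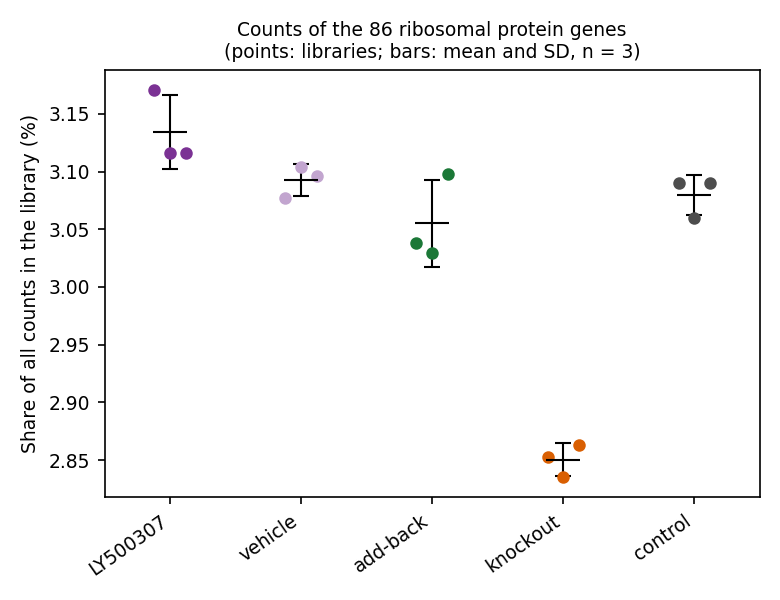
Share of all counts of a library that the 86 ribosomal protein genes hold, in percent on an axis that does not start at 0, for the LY500307, vehicle, add-back, knockout and control groups; points are libraries and bars the mean and SD of 3. The knockout libraries, at 2.835 to 2.863%, lie below all others.

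Gene by gene, the 3 knockout libraries were the lowest of all 15 for 33 of the 84 tested members (39.3%), against 6.6% of all genes tested. The 3 control libraries were the highest for 23 members (27.4%, against 12.1% of all genes). LY500307 libraries were the highest for 3 members (3.57%, against 1.27%) and the lowest for 0 (against 1.41%). At the other ends, vehicle libraries were the highest for 5 members (6.33% of all genes) and the lowest for 5 (4.13% of all genes), add-back libraries the highest for 2 (2.16%) and the lowest for 1 (2.14%), and knockout libraries the highest for 1 (4.63%). Control libraries were the lowest for 0 members, against 10.5% of all genes.

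Levels per length differed widely between members, while each member varied less between libraries. Over all libraries the 77 proteins of the 2 subunits had a median of 383.6 CPM per kb of transcript, with medians of 385 CPM per kb for 60S genes and 381.5 CPM per kb for 40S genes. RPL7A was the highest at 1771 CPM per kb, followed by RPS2 at 1477, RPL8 at 1454 and RPL41 at 1259 CPM per kb. RPL41 encodes the shortest protein of the ribosome. The lowest was RPL37 at 71.22 CPM per kb, whose transcript length is raised by long annotated forms, so its place in this order is uncertain. The 6 tested duplicate copies had a median of 28.84 CPM per kb, between 8.656 for RPS27L and 98.78 for RPL36AL. The ratio of the highest library to the lowest had a median of 1.314 over these 77 genes, and ran between 1.127 for RPL13 and 1.907 for RPS12.

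The comparison of knockout with control cells asks what follows the loss of ERβ. Ribosomal protein genes fell in knockout cells: 61 of 84 tested members were called lower (22.6% of all genes were) and 7 higher (23.4% of all genes), at an edgeR quasi-likelihood test with Benjamini-Hochberg adjusted p below 0.05 over 19516 genes. The median log2 fold change was -0.22 over the members and -0.00 over all genes. Of the 43 60S genes outside the stalk 34 fell and 3 rose, and of the 31 40S genes 23 fell and 1 rose. For 59 of the 61 members that fell, every knockout library was below every control library. A call already favours such separation, and its share among all called genes was not computed. The sizes were small, and those of RPL37A, RPL21, RPL37, RPS12 and RPL22 were the largest.

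RPL37A, a zinc-binding protein of the 60S subunit, had 234, 217 and 237 CPM in the knockout libraries, against 383, 356 and 358 CPM in the control libraries. Knockout libraries were all well below the control ones, and the log2 fold change was -0.67 ± 0.04 (SE), with an edgeR adjusted p of 6.71e-11. RPL21, another 60S protein, had 283, 287 and 281 CPM in the knockout libraries, against 465, 422 and 435 CPM in the control libraries. These groups too were far apart, and the log2 fold change was -0.63 ± 0.04 (SE), with an edgeR adjusted p of 6.57e-11. RPL37, also in the 60S subunit, had 167, 175 and 175 CPM in the knockout libraries, against 254, 237 and 256 CPM in the control libraries, with no overlap.

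RPS12 is a 40S protein that in Drosophila takes part in cell competition. It had 143, 142 and 146 CPM in the knockout libraries, against 229, 184 and 197 CPM in the control libraries. The knockout values were within a few CPM of each other and under the lowest control library, which stood well below control replicate 1, and the log2 fold change was -0.50 ± 0.06 (SE), with an edgeR adjusted p of 7.38e-07. RPL22, a 60S protein that also binds viral RNA, had 175, 155 and 170.5 CPM in the knockout libraries, against 221, 221 and 231 CPM in the control libraries. Its groups did not overlap (log2 fold change -0.43, edgeR adjusted p = 6.87e-08).

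RPL5 and RPL11 join 5S rRNA in the particle that can bind MDM2, the ligase that degrades p53. RPL11 had 167, 147 and 171 CPM in the knockout libraries, against 204, 204 and 209.6 CPM in the control libraries, all knockout libraries being lower (log2 fold change -0.35, edgeR adjusted p = 1.69e-05). RPL5 had 518, 502 and 502 CPM in the knockout libraries, against 624, 612 and 618 CPM in the control libraries, again without overlap. RPL13A, known for the GAIT complex that represses translation, had 447, 458 and 439.5 CPM in the knockout libraries, against 497, 525 and 439.8 CPM in the control libraries. Its groups overlapped, and its call was near the limit (log2 fold change -0.12, edgeR adjusted p = 0.0496) and was lost with the GC content and length offsets, with the replicate block and without any 1 of 5 of the 6 libraries.

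In the 40S subunit, RPSA, which has also been described as a laminin receptor, had 793, 776 and 777 CPM in the knockout libraries, against 952, 907 and 939.8 CPM in the control libraries. Every knockout library was lower (log2 fold change -0.25, edgeR adjusted p = 1.18e-06). RPS6, the protein phosphorylated by S6 kinases, had 406, 390.4 and 401 CPM in the knockout libraries, against 489.8, 489 and 507 CPM in the control libraries, without overlap. RPS18, a 40S protein, did not pass the test: it had 242, 242 and 250 CPM in the knockout libraries, against 264, 263 and 241 CPM in the control libraries, with overlapping groups (log2 fold change -0.07, edgeR adjusted p = 0.215). RPS2 averaged 1267 ± 31.2 CPM in knockout and 1250 ± 34.8 CPM in control libraries and did not pass either (log2 fold change 0.02, edgeR adjusted p = 0.652), but with the GC content and length offsets described below it had -0.13 and was called lower.

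The stalk genes, whose proteins call elongation factors to the ribosome, did not move together. RPLP0, the base of the stalk, had 803, 782 and 765 CPM in the knockout libraries, against 849.5, 834 and 841 CPM in the control libraries, all knockout libraries being lower (log2 fold change -0.10, edgeR adjusted p = 0.0147), a call lost without knockout replicate 3 and with the offsets. RPLP1 had 278, 287 and 319.7 CPM in the knockout libraries, against 249.5, 258 and 240.1 CPM in the control libraries, and here all knockout libraries were higher (log2 fold change 0.24, edgeR adjusted p = 0.00349). RPLP2 had 152, 169 and 181 CPM in the knockout libraries, against 172, 181 and 151 CPM in the control libraries, with overlapping groups (log2 fold change -0.00, edgeR adjusted p = 0.969), and was called lower at -0.20 with the offsets.

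The members that rose were few. RPL28, a 60S protein, had 292, 312 and 319 CPM in the knockout libraries, against 239, 251 and 234 CPM in the control libraries. The knockout libraries were all higher, and the log2 fold change was 0.35 ± 0.06 (SE), with an edgeR adjusted p of 6.48e-05. RPS28, a 40S protein at the mRNA exit, had 88.1, 102 and 99 CPM in the knockout libraries, against 73.7, 82.6 and 68.9 CPM in the control libraries, again without overlap (log2 fold change 0.36, edgeR adjusted p = 0.00152).

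**Figure D2:**
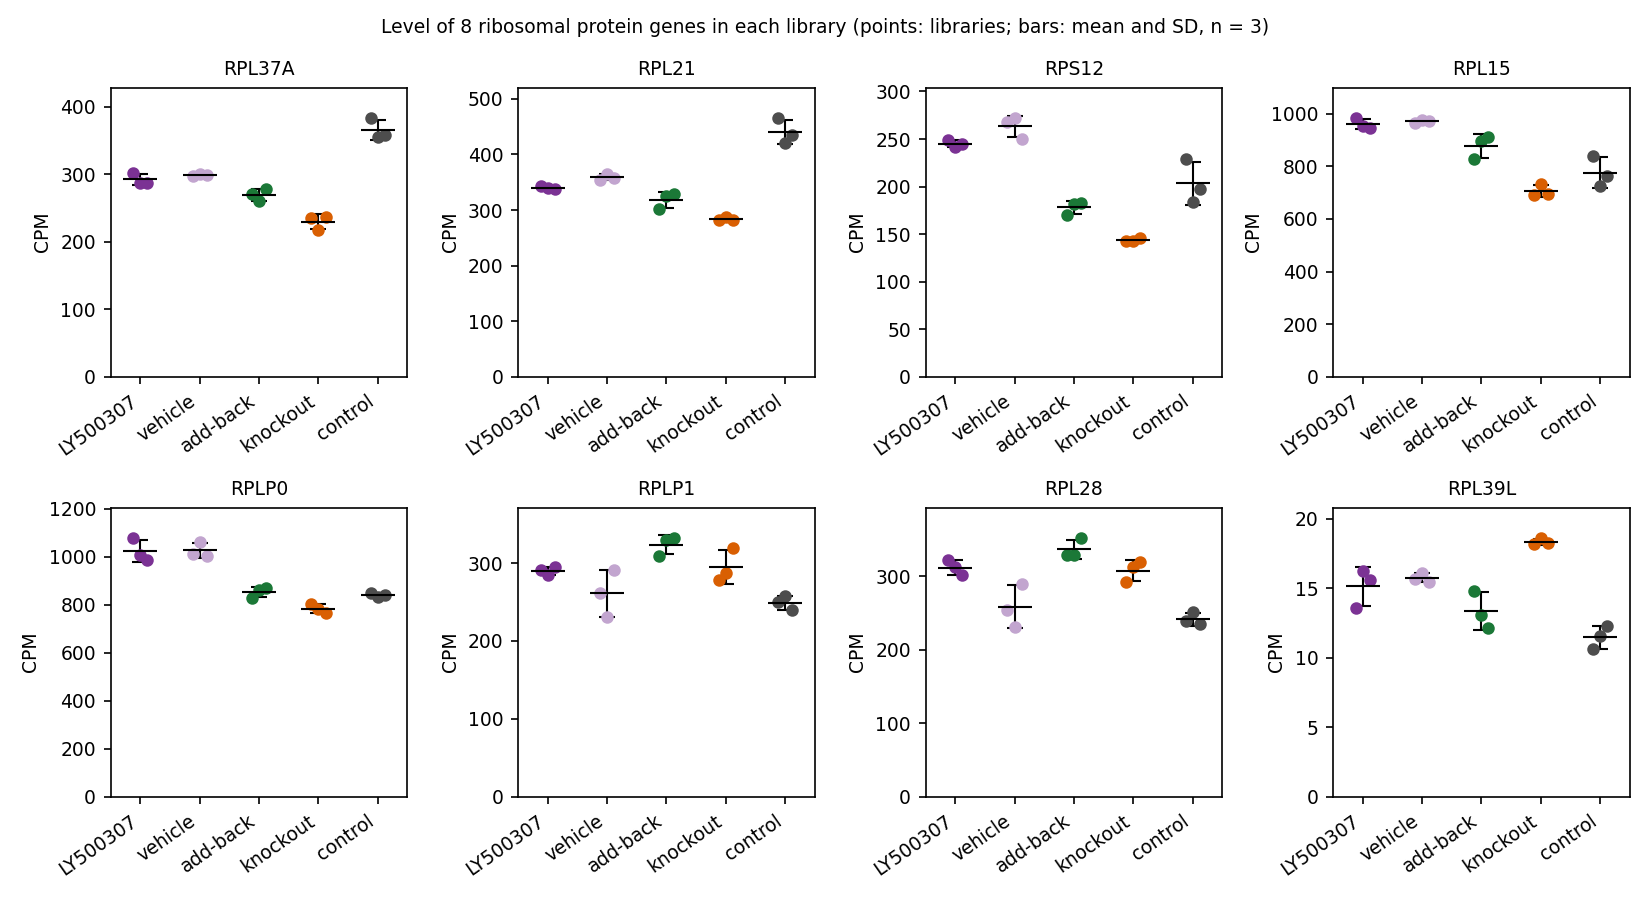
CPM of RPL37A, RPL21, RPS12, RPL15, RPLP0, RPLP1, RPL28 and RPL39L in every library of the LY500307, vehicle, add-back, knockout and control groups, each axis starting at 0; points are libraries and bars the mean and SD of 3. RPL37A and RPL21 are highest in control libraries and lowest in knockout libraries, while the group means of RPL28 and RPL39L are lowest in control cells, where single vehicle or add-back libraries reach as low.

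GC content moved with these changes. Members with GC content below 45% had a median log2 fold change of -0.27 (all genes in that range -0.13), those of 45 to 50% had -0.24 (all genes -0.07), those of 50 to 55% had -0.21 (all genes -0.01), and those of 55% or more had 0.01 (all genes 0.30). With offsets for GC content and length fitted across all genes, 45 members were called lower (18.9% of all genes) and 4 higher (22.4% of all genes), 37 of the 61 among the lower ones, and the median was -0.11.

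The place in the genome also moved with the size. The median log2 fold change of the 20 tested genes on either side of a member had a Pearson correlation of 0.60 with the member's own over the 84 members (0.55 with the offsets); neighbouring genes share their base composition and their libraries. Around RPL37A, at chr2:216498189-216579180 on GRCh38, the neighbours had a median of -0.57, around RPL21 of -0.44 and around RPL37 of -0.31. Around RPS12 it was -0.08 and around RPL22 0.14, while RPS12 and RPL22 themselves fell. Around RPL28, which rose, it was 0.41, and around RPL39L, which rose most, 0.09. With the offsets these medians were -0.48 around RPL37A, -0.30 around RPL21, -0.19 around RPL37, 0.13 around RPS12 and 0.06 around RPL22. They were -0.04 around RPL28 and 0.25 around RPL39L. RPL28 itself had 0.32 with the offsets. The part of position in these changes was not tested.

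Members with and without the pyrimidine start had medians close to each other. The median log2 fold change was -0.23 over the 47 tested members with it, 34 of which fell. It was -0.21 over the 20 tested members with a window but without the pyrimidine start, 16 of which fell. A run that begins a base after the annotated start, as in RPS28, was classed as absent. The groups may therefore not separate genes with a tract from genes without, and the part of the tract was not tested.

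Other genes of the same machinery were read from lists. Over all genes tested, 22.6% were called lower and 23.4% higher, or 18.9% and 22.4% with the offsets. Of 45 genes for ribosome assembly and rRNA synthesis 37 fell and 1 rose, with a median log2 fold change of -0.28 (34 and 1 with the offsets). Nucleolin (NCL), which takes part in early rRNA processing, had 659 ± 51.3 CPM in knockout and 1195 ± 17.5 CPM in control libraries (log2 fold change -0.86, edgeR adjusted p = 3.72e-12), and WDR12, a 60S assembly factor, had a log2 fold change of -0.92. Of 21 other genes with TOP tracts 16 fell and 3 rose. TPT1, the translationally controlled tumor protein, had 349 ± 5.37 CPM in knockout and 659.5 ± 45 CPM in control libraries (log2 fold change -0.92, edgeR adjusted p = 7.31e-13), and the elongation factor genes EEF1B2 and EEF1A1 had log2 fold changes of -0.64 and -0.29, both called. Of 78 mitochondrial ribosomal protein genes 38 fell and 12 rose, and the largest log2 fold changes were -1.20 for MRPS31 and 1.30 for MRPL41. Of 25 initiation factor genes 14 fell and 1 rose (9 and 4 with the offsets). MYC had 103 ± 3.28 CPM in knockout and 157 ± 6.23 CPM in control libraries (log2 fold change -0.61, edgeR adjusted p = 7.87e-10), and LARP1 had a log2 fold change of -0.29, also called. Of the proteins of the ribosome with other symbols, RACK1 had a log2 fold change of -0.16 and was called, and FAU had 0.09 and was not (with the offsets -0.12, called). As a comparison for transcript length, 40 other short mRNAs had 14 lower and 5 higher calls, and 6 lower and 15 higher with the offsets. The protein-coding mRNAs of mitochondrial DNA, part of the totals behind the shares above, fell in 11 of 13 cases (7 with the offsets), with a median log2 fold change of -0.37 (-0.16 with the offsets).

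The comparison of add-back with knockout cells asks what returns with ERβ. Ribosomal protein genes rose in add-back cells: 31 of 84 members were called higher (10.4% of all genes were) and 2 lower (9.19% of all genes). With the GC content and length offsets the counts were 43 higher (12.2% of all genes) and 2 lower (10.3%). Of the 31 40S genes 16 rose, with a median log2 fold change of 0.13, and of the 43 60S genes 14 rose; over all members the median was 0.09. The only called falls were in duplicate copies. Knockout libraries are shared with the comparison above, so the values of the 2 comparisons are not independent.

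RPL15, a 60S protein, had 827, 896 and 910.3 CPM in the add-back libraries, against 691, 734 and 695 CPM in the knockout libraries. All add-back libraries were above the knockout ones, and the log2 fold change was 0.31 ± 0.04 (SE), with an edgeR adjusted p of 3.49e-05; control libraries had 841, 726 and 762 CPM. RPS12 had 170.2, 181 and 183 CPM in the add-back libraries, against 143, 142 and 146 CPM in the knockout libraries, without overlap (log2 fold change 0.31, edgeR adjusted p = 0.000668). RPS27, a zinc-binding 40S protein, had 157, 157 and 158 CPM in the add-back libraries, against 134, 108 and 138 CPM in the knockout libraries, without overlap (log2 fold change 0.31, edgeR adjusted p = 0.00471). The 40S protein RPS2 had 1468, 1488 and 1542 CPM in the add-back libraries, against 1234, 1270 and 1297 CPM in the knockout libraries, all add-back libraries being higher (log2 fold change 0.24, edgeR adjusted p = 1.35e-05), while its control libraries, at 1277, 1263 and 1211 CPM, were near the knockout ones.

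RPL29, a 60S protein that also binds heparin, had 321, 335 and 328 CPM in the add-back libraries, against 267, 267 and 282 CPM in the knockout libraries (log2 fold change 0.27, edgeR adjusted p = 2.84e-05). RPL30, a 60S protein that in yeast represses the splicing of its own transcript, had 493, 515 and 524 CPM in the add-back libraries, against 421, 434 and 434 CPM in the knockout libraries (log2 fold change 0.25, edgeR adjusted p = 5.33e-05). Neither showed overlap. RPLP0 had 828, 860.5 and 870.3 CPM in the add-back libraries, against 803, 782 and 765 CPM in the knockout libraries, higher in add-back libraries without overlap (log2 fold change 0.12, edgeR adjusted p = 0.012).

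Genes that were furthest down in knockout cells had add-back values between the knockout and control ones. RPL37A had 271, 260.2 and 278 CPM in the add-back libraries and RPL21 had 302, 326 and 328 CPM in the add-back libraries, in each case above all knockout libraries and below all control libraries. RPL22 had 170.1, 172 and 175 CPM in the add-back libraries, which overlapped the knockout libraries (log2 fold change 0.05, edgeR adjusted p = 0.466).

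Among the other lists, 20 of the 78 mitochondrial ribosomal protein genes rose in add-back cells against knockout cells (25.6%, against 10.4% of all genes) and 1 fell, and 6 of the 21 other TOP genes rose (28.6%) and 1 fell. EEF1A1 and TPT1 had called log2 fold changes of 0.25 and 0.29. Of the 45 ribosome assembly genes 5 rose (11.1%) and 3 fell (6.67%, against 9.19% of all genes), which is near the shares over all genes, WDR12 being among those that rose with a log2 fold change of 0.27. Of the 40 other short mRNAs 10 rose (25%) and 0 fell.

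**Figure D3:**
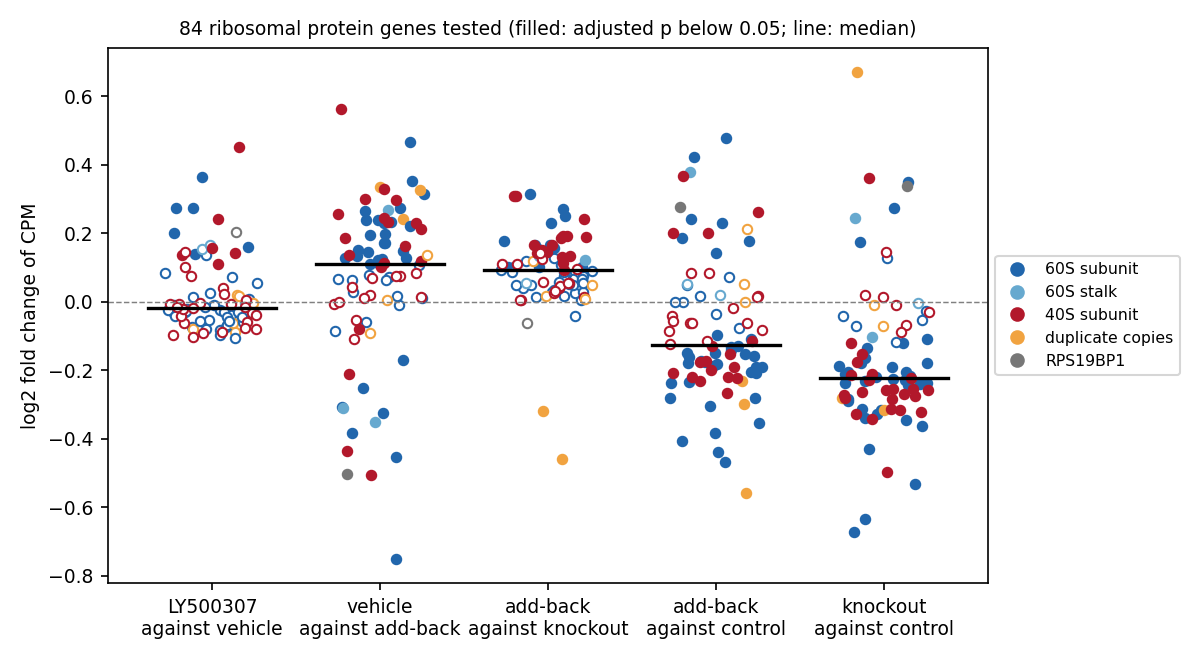
log2 fold change of each of the 84 tested members in 5 comparisons, with LY500307 against vehicle, vehicle against add-back, add-back against knockout, add-back against control and knockout against control running across; filled points have an adjusted p below 0.05, colours give the class and lines the median. The medians are -0.02, 0.11, 0.09, -0.13 and -0.22 in that order.

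Add-back cells set against control cells compare exogenous with native ERβ. In add-back cells 45 members were lower (22.7% of all genes) and 13 higher (23.2% of all genes), with a median log2 fold change of -0.13. With the GC content and length offsets the split moved to 20 lower (18.9% of all genes) and 18 higher (22.9% of all genes), the median was -0.01, and 17 of the 45 were called lower again while 1 was called higher. The split of calls in this comparison thus depended on whether GC content and length were corrected for together; the 2 were not separated. The largest values at the lower end belonged to RPL22L1, RPL21, RPL37A, RPL36A and RPL22, and those at the upper end included RPL28, RPLP1 and RPS28. RPL21 had a log2 fold change of -0.47 and RPL37A of -0.44; with the offsets they had -0.30 and -0.30. RPL28 had 329.5, 329 and 352 CPM in the add-back libraries, against 239, 251 and 234 CPM in the control libraries, all add-back libraries being higher, and the log2 fold change was 0.48 ± 0.06 (SE), with an edgeR adjusted p of 1.9e-06, or 0.47 with the offsets. RPLP1 had 309.5, 329.8 and 332 CPM in the add-back libraries, against 249.5, 258 and 240.1 CPM in the control libraries, again without overlap (log2 fold change 0.38, edgeR adjusted p = 6.29e-05).

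The agonist comparison asks what 24 h of LY500307 did to cells that carried exogenous ERβ. In LY500307 libraries 12 members were called higher (4.77% of all genes were) and 0 lower (2.35% of all genes), 6 in each subunit, and the median log2 fold change over the 84 was -0.02. Most members that rose were rich in GC: of 17 with a GC content of 55% or more 11 rose (64.7%), with a median of 0.16, and of all genes in that range 16% rose, with a median of 0.15. With the GC content and length offsets 3 members rose (1.15% of all genes) and 0 fell (0.471% of all genes). The call count also moved when single libraries were left out. It was 3 without vehicle replicate 1 or 2 and 4 without LY500307 replicate 1 or 2. It was 9 without LY500307 replicate 3 and 16 without vehicle replicate 3. The share of all genes called in these fits was not computed.

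RPS28 had 100, 98.5 and 95.1 CPM in the LY500307 libraries, against 66.8, 63.5 and 85 CPM in the vehicle libraries. Vehicle replicate 3 was much nearer the LY500307 libraries than the other vehicle libraries were, though the groups did not overlap, and the log2 fold change was 0.45 ± 0.08 (SE), with an edgeR adjusted p of 0.00397, or 0.41 with the offsets. RPL28 had 322, 313 and 302 CPM in the LY500307 libraries, against 254, 232 and 289.6 CPM in the vehicle libraries, with the same vehicle library nearest (log2 fold change 0.27, edgeR adjusted p = 0.00888; 0.22 with the offsets), a call lost without vehicle replicate 1 or 2. RPL18, a 60S protein, and RPS15, a 40S protein at the decoding site, had called log2 fold changes of 0.27 and 0.24, and 0.11 and 0.04 without a call with the offsets. Most members did not pass the test: RPL37A had 302, 287 and 288 CPM in the LY500307 libraries, against 298, 300 and 299 CPM in the vehicle libraries, with overlapping groups, and RPS12 had 249, 242 and 245 CPM in the LY500307 libraries, against 268, 272 and 250.3 CPM in the vehicle libraries, its LY500307 libraries all slightly lower (log2 fold change -0.10, edgeR adjusted p = 0.301). MYC averaged 72.8 CPM in LY500307 and 57.9 CPM in vehicle libraries (log2 fold change 0.33, edgeR adjusted p = 0.00035; 0.31 with the offsets). Of 45 ribosome assembly genes 8 rose (17.8%, against 4.77% of all genes) and 0 fell, and of 78 mitochondrial ribosomal protein genes 7 rose (8.97%) and 0 fell; with the offsets 2 and 1 rose. BOP1, a 60S assembly factor, had a log2 fold change of 0.48, and 0.14 without a call with the offsets.

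Vehicle libraries set against add-back libraries compare the same kind of cells in 1% charcoal-treated serum with DMSO and in 7% serum without it, and these differences cannot be told apart. Of the members 43 were higher in vehicle libraries (26.4% of all genes) and 14 lower (21.6% of all genes), with a median log2 fold change of 0.11. With the offsets 43 were higher (20.7%) and 8 lower (22.3%). The lower ones were again rich in GC: of 17 members with 55% or more 12 were lower (70.6%), with a median of -0.25, and of all genes in that range 50.7% were lower, with a median of -0.33.

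RPS12 was the member highest in vehicle libraries relative to add-back ones: it had 268, 272 and 250.3 CPM in the vehicle libraries, against 170.2, 181 and 183 CPM in the add-back libraries. The groups were far apart, and the log2 fold change was 0.56 ± 0.06 (SE), with an edgeR adjusted p of 9.86e-08. RPL41 had 729.5, 733 and 748 CPM in the vehicle libraries, against 532, 516 and 554 CPM in the add-back libraries, also without overlap (log2 fold change 0.47, edgeR adjusted p = 1.19e-09). RPLP0 had 1012, 1063 and 1004 CPM in the vehicle libraries, against 828, 860.5 and 870.3 CPM in the add-back libraries, all vehicle libraries being higher (log2 fold change 0.27, edgeR adjusted p = 1.52e-06).

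At the other end RPL18 had 195, 192 and 222 CPM in the vehicle libraries, against 284, 279 and 270.1 CPM in the add-back libraries. Its log2 fold change was -0.45 and was called, against -0.06 without a call with the offsets. RPS15 had a log2 fold change of -0.51, against 0.01 with the offsets. RPLP1 had 262, 231 and 291 CPM in the vehicle libraries, against 309.5, 329.8 and 332 CPM in the add-back libraries, lower in vehicle libraries without overlap (log2 fold change -0.31, edgeR adjusted p = 0.000396). RPLP0 was thus higher and RPLP1 lower in vehicle cells, and RPLP2, with 138, 126 and 146 CPM in the vehicle libraries, against 176, 177 and 169 CPM in the add-back libraries, was lower too (log2 fold change -0.35, edgeR adjusted p = 0.00019), though its log2 fold change was 0.01 with the offsets.

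**Figure D4:**
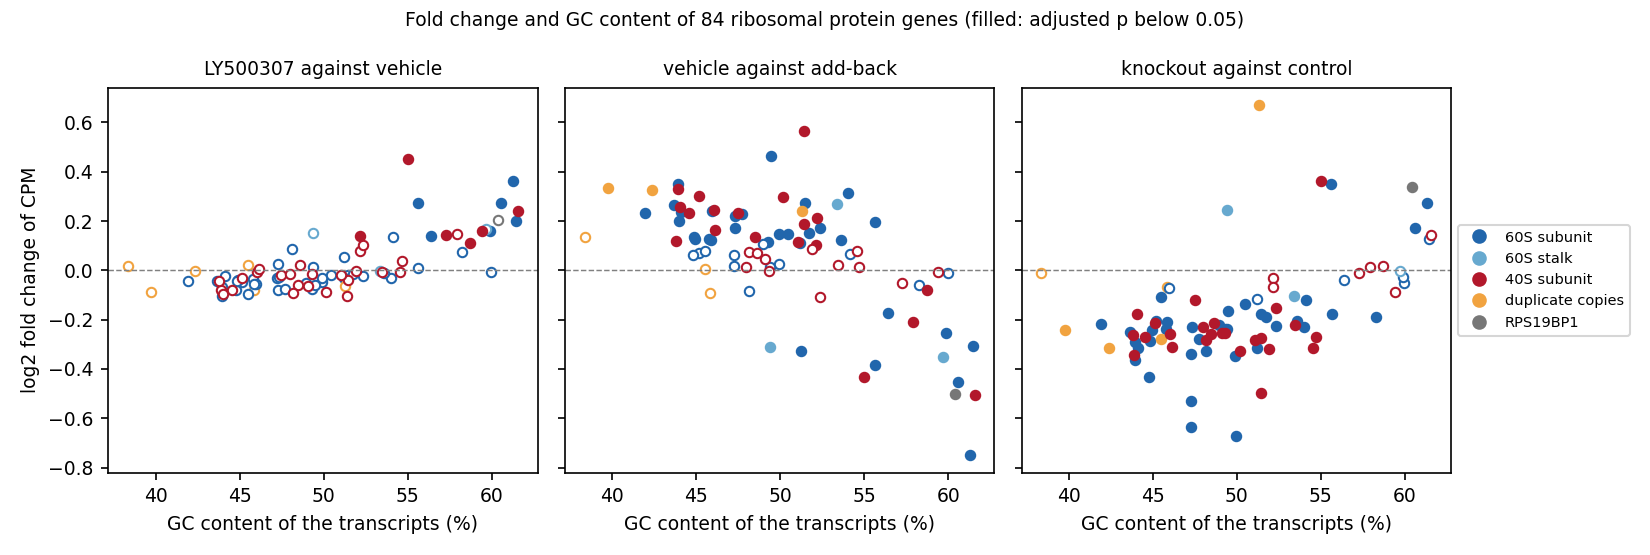
log2 fold change of each of the 84 tested members against the GC content of its transcripts in percent, for LY500307 against vehicle, vehicle against add-back and knockout against control; filled points have an adjusted p below 0.05 and colours give the class. The Pearson correlations over the 84 members are 0.70, -0.64 and 0.50 in that order, against 0.31, -0.35 and 0.30 over all genes.

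GC content followed the fold changes of the members in 4 of the 5 comparisons. The Pearson correlation over 84 members was 0.70 for LY500307 against vehicle, -0.64 for vehicle against add-back, 0.60 for add-back against control and 0.50 for knockout against control, but 0.13 for add-back against knockout. Over all genes these were 0.31, -0.35, 0.33, 0.30 and 0.01. These are descriptions across genes of the same libraries, and genes are not independent replicates.

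Among the duplicate copies RPL39L moved against its parent gene RPL39 between knockout, add-back and control cells. Between LY500307, vehicle and add-back libraries the means of both genes ran in the same order, with RPL39 at 302.3, 325.2 and 255 CPM. RPL39L, a copy of RPL39 known from mouse testis, had 13.6, 16.2 and 15.6 CPM in the LY500307 libraries, 15.7, 16.1 and 15.5 CPM in the vehicle libraries, 14.8, 13.1 and 12.1 CPM in the add-back libraries, 18.2, 18.6 and 18.2 CPM in the knockout libraries and 10.6, 11.6 and 12.3 CPM in the control libraries. It was higher in every knockout library than in any other library. The log2 fold change was 0.67 for knockout against control (edgeR adjusted p = 3.16e-06; 0.76 with the offsets) and -0.46 for add-back against knockout (edgeR adjusted p = 0.000536). Its parent RPL39, which lines the exit tunnel, had 227, 252 and 232 CPM in the knockout libraries, against 302, 283 and 284 CPM in the control libraries, all knockout libraries being lower (log2 fold change -0.29, edgeR adjusted p = 6.18e-06), but its value with the offsets was -0.03 and was not called.

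RPL22L1, the copy of RPL22, had 55.9, 51.3 and 52.4 CPM in the LY500307 libraries, 58.6, 58.1 and 52.9 CPM in the vehicle libraries, 43, 45 and 46.6 CPM in the add-back libraries, 53.7, 56.2 and 57.8 CPM in the knockout libraries and 71.6, 61.7 and 65.1 CPM in the control libraries. Add-back libraries were the lowest and control libraries the highest. It was lower in add-back than in knockout libraries (log2 fold change -0.32, edgeR adjusted p = 0.000665) and lower in knockout than in control libraries (log2 fold change -0.24, edgeR adjusted p = 0.00191), though the second of these calls was lost with the offsets, at -0.01. RPL36A, the parent of RPL36AL, had 73.3, 62.8 and 73.8 CPM in the knockout libraries, against 88.3, 91.9 and 90.2 CPM in the control libraries, lower in every knockout library. Rows for its pseudogenes held 32.8% as many counts as RPL36A itself, and the left-out readthrough RPL36A-HNRNPH2 held 39.3% as many. Reads may be split among them. RPL36AL was called too (log2 fold change -0.31), but with the offsets it had -0.11 and was not. RPL7L1, which works in pre-rRNA processing, had a log2 fold change of -0.28 between knockout and control cells and was called. RPS27L, a p53 target, and RPL26L1 had -0.01 and -0.07 and were not called. RPS19BP1 had 21.5, 20.9 and 23.1 CPM in the knockout libraries, against 18.3, 15.5 and 18.1 CPM in the control libraries, higher in knockout cells without overlap (log2 fold change 0.34, edgeR adjusted p = 0.00101), and 0.08 with the offsets, not called.

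RPS24, a 40S protein mutated in some families with Diamond-Blackfan anemia, was looked at by transcript, and was chosen after its values were seen. Its forms differ in a 3-base exon (chr10:78037439-78037441) and a 22-base exon (chr10:78040204-78040225) on GRCh38, which change the last residues of the protein. The GENCODE 29 transcripts are shown over the stretch in which these exons are used or skipped; capitals mark the bases of these 2 exons, between 15 bases of the exon before and 9 bases of the exon after.
RPS24-201: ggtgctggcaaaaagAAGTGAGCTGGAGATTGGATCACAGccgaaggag
RPS24-202: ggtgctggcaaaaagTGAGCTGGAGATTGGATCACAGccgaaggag
RPS24-214: ggtgctggcaaaaagccgaaggag
The form with both exons had 38.95, 39.66 and 40.72% of RPS24 counts in LY500307, 41.26, 43.69 and 37.82% in vehicle, 32.01, 28.23 and 38.63% in add-back, 35.36, 35.07 and 34.24% in knockout, and 28.43, 27.57 and 24.34% in control libraries. All 3 knockout libraries were above the control ones. The difference of 8.11 percentage points had an exact two-sided permutation p of 0.1, the smallest that 3 against 3 libraries allow, and ran between 6.89 and 8.94 points when 1 library was left out. Add-back and knockout libraries overlapped (difference -1.93 points, exact permutation p = 0.7), as did LY500307 and vehicle libraries (-1.15 points, exact permutation p = 0.6). Add-back differed from control libraries by 6.18 points and vehicle from add-back libraries by 7.97 points (exact permutation p = 0.2 each). RSEM divided the reads among annotated transcripts of 537 (RPS24-201), 553 (RPS24-202) and 634 bases (RPS24-214), which share most of their sequence and also differ outside these exons.

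**Figure D5:**
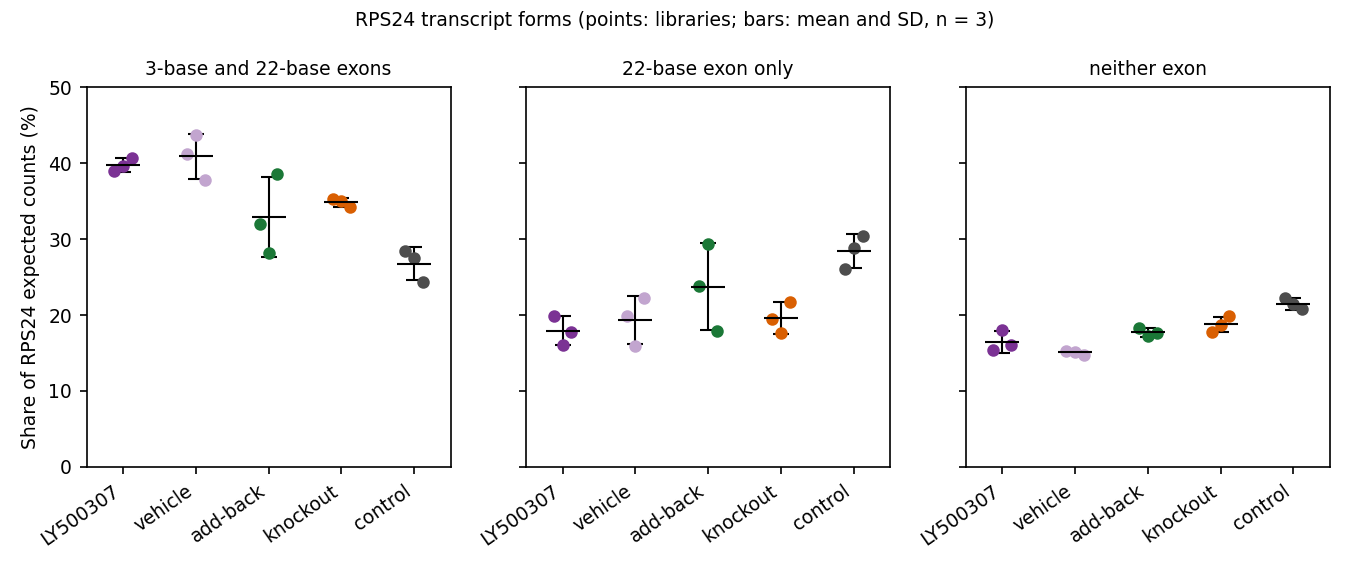
Share of RPS24 expected counts, in percent, held by the form with the 3-base and 22-base exons, the form with the 22-base exon and the form with neither, for the LY500307, vehicle, add-back, knockout and control groups; points are libraries and bars the mean and SD of 3. The form with both exons holds 34.24 to 35.36% in knockout and 24.34 to 28.43% in control libraries.

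In the transcript table, 83 of the 84 tested members had at least 90% of their counts on GENCODE 29 transcripts. A protein-coding transcript held the most counts for 77 of them. A transcript with a retained intron led for 5 genes, RPL8, RPL4, RPS23, RPL14 and RPS28, and a nonsense-mediated decay transcript led for RPS3. The leading transcript held a median of 83.22% of the gene's counts (35.16 to 100%), and in 6 genes protein-coding transcripts held less than 50%. As RSEM assigned the reads, the gene counts of those members thus include RNA other than the mature coding message.

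The mean profile of the 77 subunit and stalk genes over the 15 libraries was taken from their scaled levels. Its Pearson correlation with RPL32, which is part of that mean, was 0.941, among the highest of the members. The mean profile was least like those of RPS19BP1 and RPL39L, which are not part of it, with correlations of -0.731 and -0.645. Of 6000 other protein-coding genes searched, the 3 most alike were SPATS2L and MLPH, each with 0.962, and SPP1 with 0.961. SPP1, the secreted phosphoprotein osteopontin, had a mean of 30.1 CPM in knockout and 158 CPM in control libraries. These correlations run over 5 groups of 3 libraries that lie apart from each other and are given as descriptions.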

How the data were processed

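Expression was measured by rRNA-depleted, stranded total RNA sequencing of 15 KPL4 libraries. Per the submitters' processing notes the tools were FastQC, Trim Galore, GSNAP and RSEM with GRCh38; the annotation release and the strand setting of the counting are not given in the sources used here. The authors deposited expected counts per gene and per transcript from RSEM, without normalization. Gene-level expected counts were rounded to whole numbers. Positions, gene types, GC content and lengths came from GENCODE 29, which lists 58396 of the 60664 gene identifiers; GC content and length were weighted by the transcripts' counts, and for RPS27 they rest on 4.216% of its counts.

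Genes were filtered with filterByExpr, scaled with TMM and fitted in 1 model of 5 groups with edgeR 4.0.16 in R 4.3.3. The two-sided quasi-likelihood F test was adjusted by Benjamini-Hochberg over 19516 genes and called below 0.05. Levels are CPM on TMM-scaled library sizes, and the common biological coefficient of variation was 4.994%. GC content and length offsets were smooth curves per library over all genes (mgcv 1.9.3). Other alternatives used DESeq2 1.42.0, limma-voom (limma 3.58.1), other scalings and filters, single libraries left out and a replicate block. Scripts were checked on simulated counts.

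The p-values measure only the spread between libraries, since the labels do not say whether these came from separate cultures. Replicate counts differed by 2.15 to 5.44 times counting error (chi-square per degree of freedom), more than counting error alone gives. This cannot tell libraries prepared from the same culture from libraries of separate cultures. Genes named in a comparison were the 5 members with the largest and the 5 with the smallest log2 fold change, a fixed set of well-known members and duplicate copies, and the leading genes of each list. Members and lists were chosen with earlier results of these data known. A few genes that this rule names are not reported here.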

Additional observations from a re-analysis of the deposited data

How the results depend on the processing

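Leaving out 1 library means a fit of the other 14 in which the gene filter and the scaling were redone (19857 to 20082 genes tested, against 19516), so these ranges hold those changes too. For knockout against control 57 to 61 members were lower and 6 to 8 higher when 1 library was left out. With GC content and length offsets 45 members rather than 61 were lower, 37 of them the same, 4 rather than 7 were higher, and the median log2 fold change was -0.11 rather than -0.22. The share of the library fell to 0.918 of the control share when all genes of the mitochondrial genome were left out of the totals. For add-back against knockout, 27 to 36 members were higher when 1 library was left out. For LY500307 against vehicle 3 to 16 were higher when 1 library was left out, and 3 with the offsets. For add-back against control, 39 to 47 were lower and 13 to 15 higher when 1 library was left out, and 20 were lower with the offsets. For vehicle against add-back, 32 to 37 were higher, all below the 43 of the full fit, and 13 to 17 lower when 1 library was left out; the 6 libraries of this comparison alone gave 36 higher and 16 lower, and 8 were lower with the offsets. The cause of these changes was not tested beyond the offsets' own correction for GC content and length. For the fits without 1 library and of 6 libraries, the share of all genes called was not computed. A change in the members thus cannot be told from a change in calls over all genes there.

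The sign turned round with the offsets for these named genes, given as log2 fold changes with the offsets. Called in the new direction were RPS2 and FAU in knockout against control, and RPS2, RPL7L1 and FAU in vehicle against add-back. The others were called without the offsets but not with them, so they lost their call rather than reversing it. Knockout against control had TSC2 -0.021, RPS2 -0.13 and FAU -0.12. LY500307 against vehicle had RPS2 -0.0026, SLC25A6 -0.038, MRPL41 -0.0044, EIF4EBP1 -0.048 and MRPL38 -0.039. Add-back against control had RPL7 0.036, RPL26 0.070 and RPL39 0.062. Vehicle against add-back had EIF4G2 -0.00076, RPS15 0.0085, RPS2 0.18, RPL7L1 -0.16, FAU 0.21 and RPLP2 0.0051.

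Replicate numbers did not pair the libraries: the residual profiles of 30 same-numbered pairs correlated between -0.44 and 0.315 across genes, only 7 of them above 0.1. With the replicate block, 61 members were lower and 7 higher in knockout against control, 28 higher in add-back against knockout, 10 higher in LY500307 against vehicle, 45 lower in add-back against control, and 42 higher and 13 lower in vehicle against add-back. The share of all genes called with the replicate block was not computed either. Fold changes are small against the spread for genes of few counts, and RPL10L and RPL3L could not be tested at this depth.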
